A study of Mus musculus with 6 samples.

Results

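The immediate early genes examined here were 10 transcription regulators, Fos, Fosb, Jun, Junb, Egr1, Egr2, Ier2, Klf4, Atf3 and Myc. They were listed by name, and each was matched to its Entrez identifier among the 27179 genes counted in every library. All 10 were abundant enough to be tested. RNA was sequenced from neural stem cells, cultures of dividing brain progenitors taken from male C57BL/6 x FVB/N embryos at E14.5, mid-gestation, and grown on laminin with EGF and bFGF at 20 ng/ml each. The wild type group held 3 libraries, and the Smchd1 null group held 3 libraries from cells homozygous for the MommeD1 allele of Smchd1, a gene for a chromatin protein that helps to silence the inactive X chromosome and some autosomal gene clusters. Every group shared the strain, the sex and the growth factors. Nothing in the labels says that replicates came from separate embryos, so p-values here reflect only how much these 6 samples vary, and that variation may be technical.

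Immediate early genes are switched on within minutes of a growth factor, stress or calcium signal, without the need for newly made protein. In growth factor medium the main route runs from the EGF and FGF receptors through the ERK kinases to serum response factor with its ternary complex partners and to CREB, and most of the messages are short-lived. The proteins fall into a few families. Fos and Fosb pair with Jun and Junb to form AP-1, Atf3 is a related leucine zipper factor induced by stress, Egr1 and Egr2 are zinc finger factors, Klf4 is a Krüppel-like zinc finger factor, Ier2 is a nuclear regulator, and Myc drives growth and proliferation with its partner Max.

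The targeted gene matched the labels: Smchd1 stood at 271, 260 and 232 CPM in wild type replicates 1 to 3 and between 27.9 and 31.1 CPM in the null libraries. CPM, the usual depth-scaled unit, is a count scaled to its library's TMM-adjusted total. Wild type replicate 3 stood apart from the other libraries. A single unnamed record took 44.6% of its counts against at most 5.90% elsewhere, and the 10 genes together had 4744 counts in it against 8482 to 10103 in the others. It also differed from wild type replicates 1 and 2 in its sample name, which carries the number 14, next to the null libraries' 11 to 13, where the names of wild type replicates 1 and 2 carry numbers of 3 digits. The labels do not say what these numbers mean.

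No immediate early gene passed the test between null and wild type cells. Of the 10 genes, 0 were higher and 0 lower at an adjusted p under 0.05 (edgeR quasi-likelihood test), against 0.577% of the 14207 genes tested (0.507% higher and 0.0704% lower). DESeq2 and limma-voom also called 0, and limma-voom with sample quality weights called 3, where it called 36.4% of all tested genes. At an unadjusted p under 0.05 the count was 2 of 10, Klf4 and Atf3, against 18.6% of all tested genes, so this share lay near the background. The null and wild type ranges overlapped for all 10 genes, while they did not overlap for 22.0% of tested genes. The median log2 fold change (null minus wild type) was -0.05 over the 10 genes and 0.00 over all tested genes, with 4 genes above 0 and 6 below.

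**Figure D1:**
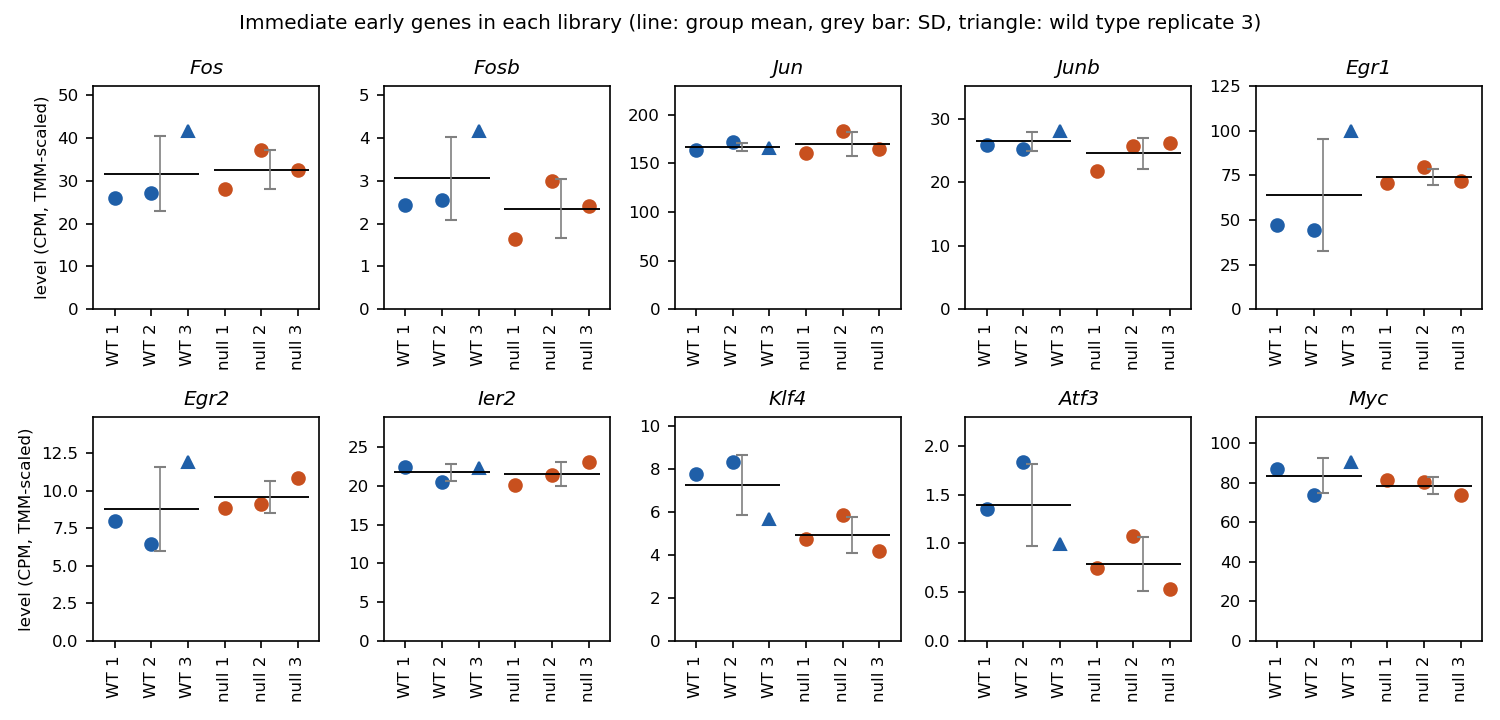
Level of each of the 10 genes in each library, in CPM on linear axes that start at 0. Blue marks wild type (WT) and orange Smchd1 null, the triangle is wild type replicate 3, black lines are group means and grey bars are SDs (n = 3). Egr1 stood at 47.4 and 44.3 CPM in wild type replicates 1 and 2 and at 100.1 CPM in replicate 3, on either side of the null libraries.

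The proximal promoters of 5 of the genes are shown because the levels of Fos and Egr2 were lowest, and those of Klf4 and Atf3 highest, in the same pair of libraries, while Jun varied little. Each is the 250 bases before a RefSeq transcription start (GRCm38.p6), on the strand of the gene. They are Fos at chr12:85473640-85473889 (plus strand), Egr2 at chr10:67537619-67537868 (plus strand), Jun at chr4:95052223-95052472 (minus strand), Klf4 at chr4:55532476-55532725 (minus strand) and Atf3 at chr1:191183334-191183583 (minus strand). Egr2 has 5 listed starts, and the first window with the most kinds of motif is shown. Capitals mark matches on either strand to TGACG (the core of the CREB site, read CGTCA on the other strand), to TGACNTCA (a site form bound by Jun with Atf2) or to the CArG box of serum response factor.
Fos: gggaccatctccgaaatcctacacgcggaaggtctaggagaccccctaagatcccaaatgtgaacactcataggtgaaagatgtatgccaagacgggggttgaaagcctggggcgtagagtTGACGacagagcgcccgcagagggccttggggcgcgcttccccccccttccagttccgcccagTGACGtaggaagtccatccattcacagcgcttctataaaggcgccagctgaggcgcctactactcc
Egr2: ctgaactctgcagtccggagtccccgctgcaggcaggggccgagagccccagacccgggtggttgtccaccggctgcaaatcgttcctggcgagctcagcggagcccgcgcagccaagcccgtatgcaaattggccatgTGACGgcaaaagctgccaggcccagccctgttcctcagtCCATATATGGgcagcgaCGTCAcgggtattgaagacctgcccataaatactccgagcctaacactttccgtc
Jun: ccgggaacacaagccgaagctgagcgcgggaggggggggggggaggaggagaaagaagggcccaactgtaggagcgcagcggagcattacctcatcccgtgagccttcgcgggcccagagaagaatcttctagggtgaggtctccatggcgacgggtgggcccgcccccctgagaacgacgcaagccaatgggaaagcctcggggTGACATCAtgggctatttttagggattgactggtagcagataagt
Klf4: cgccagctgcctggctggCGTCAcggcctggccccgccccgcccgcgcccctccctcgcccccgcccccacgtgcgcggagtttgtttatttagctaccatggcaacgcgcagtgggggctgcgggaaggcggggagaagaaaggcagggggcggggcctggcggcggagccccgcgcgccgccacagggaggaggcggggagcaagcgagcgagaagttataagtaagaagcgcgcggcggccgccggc
Atf3: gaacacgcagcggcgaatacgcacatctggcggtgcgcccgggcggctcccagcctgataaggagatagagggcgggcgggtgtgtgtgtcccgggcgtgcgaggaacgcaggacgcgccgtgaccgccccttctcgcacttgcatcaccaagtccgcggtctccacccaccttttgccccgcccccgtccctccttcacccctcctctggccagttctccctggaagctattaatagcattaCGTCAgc

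A promoter window was listed for 7 of the 10 genes; Egr1, Ier2 and Myc had none. TGACG occurred before a start of 6 of these 7 genes (Fos, Fosb, Junb, Egr2, Klf4 and Atf3), and in 17.8% of all 32851 listed windows of this length. Counts of genes here take a match in any listed window, 5 for Egr2 and 1 for each other gene. The shares of all windows are per window, so the units differ. In the Fos window it lay 124 and 61 bases before the start, in the Egr2 window 106 and 50 bases before it, with a CArG box (CCATATATGG) between the 2 matches. Within these windows a CArG box was found for Egr2 alone among the 7, and in 1.47% of all windows. Sites more than 250 bases before a start were not searched. TGACNTCA was found for Jun alone, as TGACATCA 37 bases before the start, and in 7.49% of all windows. TGANTCA, the AP-1 site, had no match in any window of the 7 genes and one in 6.75% of all windows. TGACNTCA with G at its open position would contain TGACG, and the Jun window held only the first. The genes that stood high and those that stood low in wild type replicates 1 and 2 both had TGACG matches, and a match describes letters only.

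Jun was the most abundant of the genes per unit of length, and Fosb and Atf3 were the least abundant. Jun averaged 52.7 ± 2.63 CPM per kilobase (mean ± SD, n = 6 libraries), higher than 91.1% of tested genes, and its lowest library lay above the highest of every other member. Myc followed with 33.8 ± 2.85 and Egr1 with 22.5 ± 6.78 CPM per kilobase, and their ranges overlapped. Fos (15.3 ± 3.00), Ier2 (14.2 ± 0.784) and Junb (13.9 ± 1.13) formed a middle group in CPM per kilobase, in which each range overlapped the next and the order cannot be told. Egr2 (3.10 ± 0.662) and Klf4 (2.00 ± 0.537) came next with overlapping ranges, and Fosb (0.716 ± 0.222) and Atf3 (0.552 ± 0.232) were the lowest; their ranges overlapped, and Atf3 lay above Fosb in wild type replicates 1 and 2. The 10 messages were thus held at levels spread from above 91.1% to above 9.87% of tested genes.

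**Figure D2:**
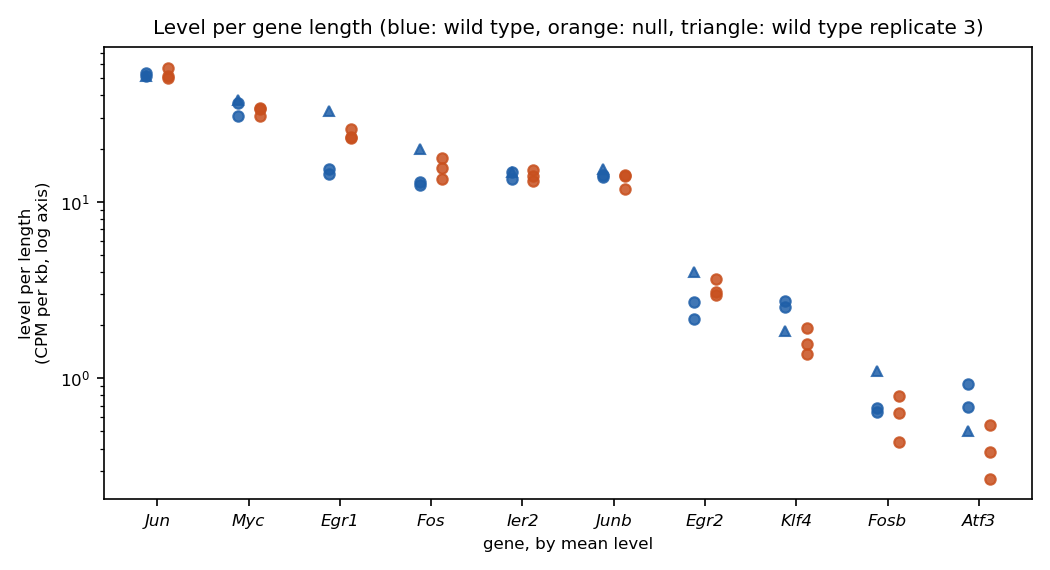
Level per gene length of the 10 genes, in CPM per kilobase on a log axis, ordered by the mean of the 6 libraries. Each point is a library, blue for wild type, orange for null and a triangle for wild type replicate 3; Jun lies at 50.3 to 57.6 CPM per kilobase, Fosb and Atf3 at 0.271 to 1.10.

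Among the AP-1 subunits, Jun and Junb were level between genotypes and Fos and Fosb varied within each group. Fos, on chromosome 12, had 26.0, 27.0 and 41.7 CPM in wild type replicates 1 to 3 and 28.0, 37.2 and 32.5 CPM in null replicates 1 to 3. Its highest library was wild type replicate 3, and both of its lowest were wild type replicates 1 and 2, so the null libraries lay between. Its log2 fold change was 0.07 ± 0.19 (SE; adjusted p = 0.857, edgeR). Without wild type replicate 3 it was 0.29, with an adjusted p of 0.0318 (edgeR), in a fit that called 39.2% of all genes tested.

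Fosb, on chromosome 7, a close relative of Fos, was low, with 63, 60 and 42 counts in the wild type libraries and 35, 64 and 54 in the null libraries. These made 2.44, 2.56 and 4.17 CPM in wild type against 1.64, 3.00 and 2.41 CPM in null. Wild type replicate 3 was again the highest library, and null replicate 1 the lowest. The log2 fold change was -0.32 ± 0.29 (adjusted p = 0.541, edgeR), with a 95% interval of -0.97 to 0.33. It was -0.09 without wild type replicate 3, -0.13 without null replicate 1 and -0.54 without null replicate 2.

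Jun, on chromosome 4, the main partner of Fos, had 163, 171 and 165 CPM in wild type against 160, 184 and 165 CPM in null. Libraries of the same group differed by at most 1.15-fold, and the fold between genotypes had a 95% interval of 0.909 to 1.14. Junb, on chromosome 8, which can oppose Jun at some promoters, had 26.0, 25.3 and 28.2 CPM in wild type against 21.8, 25.8 and 26.2 CPM in null. Its groups overlapped, with a 95% interval of the fold of 0.804 to 1.08. Jun and Junb each overlap a gene on the opposite strand, Junos by 689 bases and Prdx2 by 351 bases, and the library kit does not mark strand. Prdx2, an antioxidant enzyme gene, stood at 222 to 282 CPM, and its reads in the shared bases cannot be told apart from those of Junb.

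Atf3, the stress-induced member of the family, was among the rarest messages, and it shares 108 bases with Gm24748 on the opposite strand. On chromosome 1, it had 35, 43 and 10 counts in the wild type libraries and 16, 23 and 12 in the null libraries. These came to 1.36, 1.83 and 0.992 CPM in wild type against to 0.752, 1.08 and 0.535 CPM in null. Wild type replicate 3 lay inside the null range, below null replicate 2, and only wild type replicates 1 and 2 lay above every null library. The log2 fold change was -0.88 ± 0.33 (95% interval -1.62 to -0.13), with an unadjusted p of 0.0263 and an adjusted p of 0.227 (edgeR). It was -1.01 without wild type replicate 3 and -0.34 with the range of sample-name numbers as a term.

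Of the zinc finger genes, Egr1 differed most between libraries of the same genotype. Egr1, an early sensor of growth factor and synaptic activity, lies on chromosome 18 and had 47.4, 44.3 and 100.1 CPM in wild type against 71.0, 79.5 and 71.7 CPM in null. The wild type libraries thus spanned 2.26-fold and enclosed the null libraries, which agreed within 1.12-fold. The wild type range on the log2 scale, 1.18, was wider than that of 93.5% of tested genes. The log2 fold change was 0.23 ± 0.33 (adjusted p = 0.702, edgeR), with a 95% interval of the fold of 0.673 to 2.06.

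The sign of the Egr1 difference depended on which wild type libraries were used. Without wild type replicate 3 the log2 fold change was 0.69, with an adjusted p of 7.35e-07 (edgeR). That fit called 39.2% of all genes tested. Without wild type replicate 1 it was 0.055 and without wild type replicate 2 it was 0.025, with adjusted p of 0.966 and 0.983. With the range of sample-name numbers as a term, where the genotype estimate rests on wild type replicate 3 as the lone wild type library named in the range 11 to 14, it was -0.44, with an adjusted p of 0.0135. Relative to the mean of wild type replicates 1 and 2, wild type replicate 3 stood 2.18-fold and the null mean 1.62-fold as high.

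Egr2, which regulates myelination and hindbrain segments, had the same arrangement at a lower level. On chromosome 10, it had 7.98, 6.44 and 11.9 CPM in wild type against 8.83, 9.14 and 10.8 CPM in null. Its log2 fold change was 0.17 ± 0.21 (adjusted p = 0.66, edgeR). It was 0.41 without wild type replicate 3 (adjusted p = 0.0206, edgeR), where 39.2% of all genes were called. Egr3 and Egr4, the other members of the family, were looked up after these values were seen. Egr3 had 2.09, 1.58 and 3.37 CPM in wild type against 2.40, 2.44 and 3.21 CPM in null, so wild type replicates 1 and 2 were its lowest libraries too. Egr4 stood at 3.09 ± 0.687 CPM in wild type against 4.14 ± 0.619 CPM in null (mean ± SD, n = 3), with a log2 fold change of 0.46 ± 0.21 (adjusted p = 0.276, edgeR).

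Klf4, a factor of stem cell and differentiation programmes, lay in the opposite direction to the Egr genes. On chromosome 4, it had 7.75, 8.31 and 5.66 CPM in wild type against 4.75, 5.86 and 4.19 CPM in null. Wild type replicates 1 and 2 were higher than the 4 other libraries, and wild type replicate 3 lay just below null replicate 2. The log2 fold change was -0.58 ± 0.19 (95% interval -1.005 to -0.15), with an unadjusted p of 0.0136 and an adjusted p of 0.199 (edgeR). Without wild type replicate 3 it was -0.71 (adjusted p = 0.000984, edgeR), where 39.2% of all genes were called. With the sample-name term it was -0.20.

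Ier2 and Myc showed little difference between genotypes. Ier2, on chromosome 8, had 22.4, 20.4 and 22.3 CPM in wild type against 20.1, 21.4 and 23.0 CPM in null. Myc, on chromosome 15, had 86.8, 73.6 and 90.4 CPM in wild type against 81.4, 80.6 and 73.5 CPM in null. Both pairs of groups overlapped. The 95% interval of the fold was 0.863 to 1.14 for Ier2 and 0.818 to 1.08 for Myc.

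**Figure D3:**
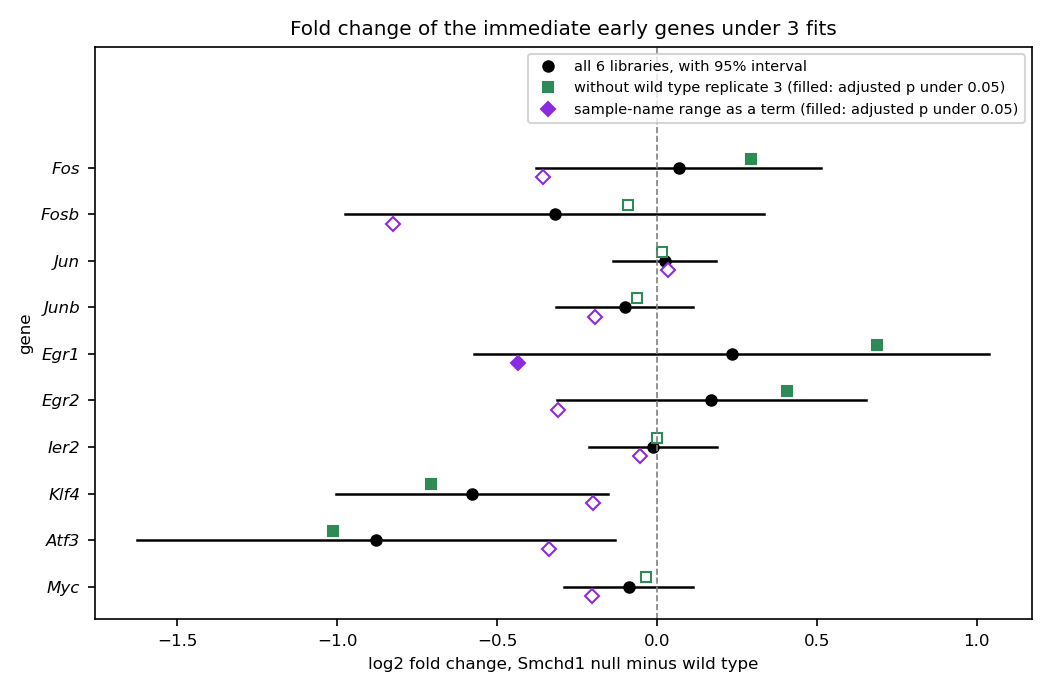
Log2 fold change (null minus wild type) of the 10 genes with all 6 libraries (black, bar: 95% interval), without wild type replicate 3 (green squares) and with the sample-name range as a term (purple diamonds); filled coloured symbols have an adjusted p under 0.05. Egr1 lies at 0.69 in green and -0.44 in purple, while Jun, Junb, Ier2 and Myc stay between -0.20 and 0.04.

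The count of called members rose to 5 of 10 when wild type replicate 3 was left out. Fos, Egr1 and Egr2 were then called higher and Klf4 and Atf3 lower in null, against 39.2% of all genes tested in that fit. With the sample-name term 1 of 10 was called, Egr1, against 1.31% of all genes. Wild type replicates 1 and 2 lay both below the 4 other libraries for Fos, Egr1 and Egr2, and both above them for Klf4 and Atf3, 5 of 10 genes. The same held for 52.9% of all tested genes, so this share of the members lay near the background. The sample-name range, the composition of wild type replicate 3 and the genotype cannot be told apart by these 6 libraries.

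Most tested markers of the oligodendrocyte, neuron and astrocyte lists singly showed the same split, those of the oligodendrocyte lineage in 1 direction. The summed neuron and astrocyte levels did not show it. The summed level of its 8 markers was 1212 and 1115 CPM in wild type replicates 1 and 2, 1597 CPM in replicate 3 and 1423 to 1504 CPM in null, and 7 of the 8 markers were lowest in wild type replicates 1 and 2. Pdgfra, the receptor of oligodendrocyte precursors, had 17.1, 18.3 and 167 CPM in wild type against 112.6 to 137 CPM in null, with wild type replicates 1 and 2 lowest and replicate 3 highest, as for Egr1. In bulk RNA more cells of a type and more RNA per cell cannot be told apart, and the part of these cells in the Egr1, Egr2 and Fos levels was not tested. Neural stem cell markers summed to 5994 to 6289 CPM in wild type against 5938 to 6100 CPM in null and all 9 were tested. Singly, 3 of these 9 were lowest and 3 highest in wild type replicates 1 and 2. Over all tested genes, 52.9% were lowest or highest in that pair of libraries. Neuron markers summed to 1095 to 1145 CPM in wild type against 1010 to 1039 CPM in null, of which Map2 alone made 967 to 1101 CPM. Nefl, a neurofilament gene, was called higher in null at a low level (0.720 ± 0.175 to 2.56 ± 0.516 CPM, mean ± SD, n = 3; adjusted p = 0.0228, edgeR), and its part in the levels of the 10 genes was not tested. Of the 8 neuron markers tested, 4 were lowest and 3 highest in wild type replicates 1 and 2. Astrocyte markers summed to 302 to 333 CPM in wild type against 288 to 306 CPM in null, but singly 4 of 6 were lowest and 1 was highest in wild type replicates 1 and 2. Aldh1l1, a folate enzyme gene of astrocytes, had 36.3, 51.8 and 99.9 CPM in wild type against 72.5 to 77.0 CPM in null, and the part of these markers was not tested either. Each list for microglia, vessels, fibroblasts and red cells summed to at most 3.97 CPM in any library, with Tmem119, Itgam, Cdh5 and Hbb-bs at 0 counts in every library.

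The other genes of the pathway also gave no call. Of 35 further immediate early genes, 34 were tested, with 0 higher and 0 lower (edgeR) and a median log2 fold change of -0.15. At an unadjusted p under 0.05 there were 9 of 34, against 18.6% of all tested genes. Sgk1, a kinase induced by serum and steroids, came closest, at 20.9, 25.5 and 28.7 CPM in wild type against 34.9, 37.6 and 35.2 CPM in null (0.53 ± 0.11, adjusted p = 0.0968). Its groups did not overlap, and each null library lay above each wild type library. Groups did not overlap for 7 of the 34 genes, against 22.0% of all tested genes. Gadd45g, a stress and growth arrest gene, differed by 0.30 ± 0.10 on the log2 scale (adjusted p = 0.207).

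Feedback genes of the ERK pathway gave no call, and their fold changes ran from near 0 to lower in null. Etv4 lay near 0, at -0.01 ± 0.07. All 11 tested had log2 fold changes below 0, with a median of -0.21, 5 at an unadjusted p under 0.05 and 0 past the adjusted threshold. Over all 14207 tested genes, 7064 lay below 0 and 18.6% had an unadjusted p under 0.05. Etv5, a transcription factor downstream of FGF, had 288, 263 and 226 CPM in wild type against 204, 202 and 206 CPM in null (-0.35 ± 0.09, adjusted p = 0.139). Dusp6, the phosphatase that switches ERK off, had 470, 503 and 416 CPM in wild type against 370, 382 and 399 CPM in null (adjusted p = 0.177). For both genes wild type replicate 3 was the wild type library nearest to the null range. Groups did not overlap for 6 of the 11 genes, against 22.0% of all tested genes. Without wild type replicate 3 the list's median was -0.26. That fit gave 0 higher and 6 lower calls among 11, where it called 39.2% of all genes. With the sample-name term the list's median was -0.08.

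Of 19 upstream kinases and factors, 0 were called and the median log2 fold change was -0.07. Mapk3, which encodes ERK1, had 70.7, 64.6 and 58.1 CPM in wild type against 43.8, 51.9 and 45.4 CPM in null (-0.46 ± 0.10, adjusted p = 0.0968). Elk3, a ternary complex factor, stood at 82.0 ± 11.1 CPM in wild type against 60.6 ± 2.91 CPM in null (mean ± SD, n = 3; adjusted p = 0.117). The wild type and null ranges of Mapk3 and of Elk3 did not overlap. The same held for 5 of the 19 genes in all, against 22.0% of all tested genes.

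Relatives and partners of the members gave no call either. Among AP-1 relatives, 9 of 12 were tested, with a median of -0.14. Maff, a small Maf factor, had 18.3, 18.3 and 11.3 CPM in wild type against 10.4, 10.9 and 10.2 CPM in null, so that wild type replicate 3 again lay near the null libraries (-0.63 ± 0.17, adjusted p = 0.156), and Atf2, a partner of Jun, stood at -0.23 ± 0.09. Among the 10 partners and corepressors of Myc and Egr proteins the median was -0.14, with 2 genes above 0 and 8 below. An unadjusted p under 0.05 was reached by 6 of these 10, against 18.6% of all tested genes. The groups did not overlap for 6 of the 10, against 22.0% of all tested genes. Mycn lay above 0, at 0.44 ± 0.15 (adjusted p = 0.213, edgeR). Mxi1 and Mxd1, Max partners that counter Myc, had log2 fold changes of -0.35 ± 0.08 (adjusted p = 0.12) and -0.39 ± 0.12 (adjusted p = 0.174), and in both the groups did not overlap. The 7 known Myc targets had a median of -0.17, with Ldha, a glycolytic enzyme, at -0.34 ± 0.08 (adjusted p = 0.119) and Cdk4, a cell cycle kinase, at -0.17 ± 0.08.

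Heat shock genes, which rise with handling stress, lay on both sides of 0. Of the 7 tested, 4 stood above 0 and 3 below, with a median of 0.01 and 0 calls (0 at an unadjusted p under 0.05). Hspa1a, an inducible Hsp70 gene, had 0.853, 1.36 and 1.29 CPM in wild type against 0.564, 0.422 and 1.07 CPM in null (-0.73 ± 0.38, adjusted p = 0.326). Hspa1b, another such gene, had 2.29, 2.47 and 2.08 CPM in wild type against 2.21, 1.92 and 2.94 CPM in null (0.04 ± 0.22, adjusted p = 0.939). Hsph1, a chaperone cofactor, stood at 0.14 ± 0.06.

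Every related list gained calls without wild type replicate 3, a fit that called 39.2% of all genes. Besides the ERK feedback genes, there were 6 higher and 15 lower calls among 34 other immediate early genes, 1 and 4 among 10 AP-1 relatives, and 0 and 6 among 19 upstream genes. There were 1 higher and 5 lower calls among the 10 partners and corepressors, 0 and 5 among the 7 Myc targets, and 2 and 2 among the 7 heat shock genes. With the sample-name term, 0 genes of these 7 lists were called.

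**Figure D4:**
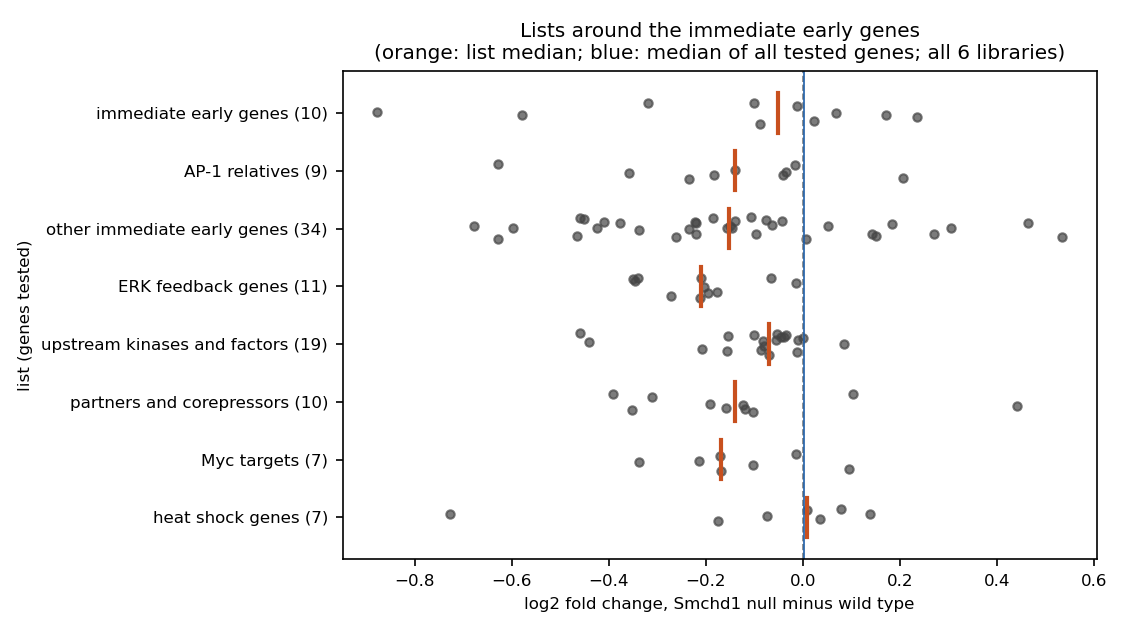
Log2 fold change (null minus wild type) of each tested gene in the 10 immediate early genes and in 7 related lists, with all 6 libraries. Orange bars are list medians, from -0.21 for ERK feedback genes to 0.01 for heat shock genes, and the blue line is the median of all tested genes, 0.00; no gene shown passed an adjusted p of 0.05.

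The levels of some members were close to each other across the 6 libraries and those of others opposed. Pearson's r of their log2 levels, given as a description over 6 libraries that also differ by genotype and sample-name range, was 0.90 for Egr1 with Egr2 and 0.89 for Egr1 with Fos. It was 0.98 for Klf4 with Atf3, 0.91 for Fosb with Junb and -0.75 for Egr2 with Atf3. The members' mean standardised level was highest in wild type replicate 3 (0.82) and lowest in null replicate 1 (-0.76), so libraries of both genotypes lay at either side of 0. The 3 other genes nearest to that mean profile by Pearson's r over the 6 libraries, among 12171 candidates, were Daam2 (0.985), Ago4 (0.983) and Mecr (0.972). With 6 libraries and so many candidates such values are a description only. The genes themselves were short, with 1 to 5 exons in their longest coding transcript (1 for Jun, Junb and Ier2, 5 for Klf4), against a median of 9 for tested genes with an annotated coding transcript.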

How the data were processed

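Counts per Entrez gene, with gene lengths, were deposited by the authors as raw whole numbers, 1 table per library. Per the submitters' processing notes, CASAVA 1.8.2, featureCounts, edgeR 3.8.2, limma 3.22.0 and build mm10 were used; the aligner and strand setting were not given in the sources used here. Gene lengths are in bases, as deposited. Libraries came from 1 µg of total RNA with a kit that does not mark strand (TruSeq v2, per the labels' protocols). Totals ran from 18608881 to 23253367 counts, with 4744 to 10103 counts over the 10 members per library. Reads carried no molecular identifiers.

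Symbols came from a RefSeq table of GRCm38.p6 (25275 of 27179 IDs matched), exons and overlaps from GENCODE vM21, and promoters from RefSeq. edgeR 4.0.16 in R 4.3.3 (filterByExpr, TMM, robust quasi-likelihood F-test, two-sided, Benjamini-Hochberg over 14207 genes) fitted genotype as the only term. SEs and 95% intervals came from the F statistic and its degrees of freedom. The test was checked on simulated counts. Alternatives were DESeq2 1.42.0, limma-voom 3.58.1 with and without quality weights, other scalings and filters, a replicate block, a sample-name term and leaving libraries out. The same replicate number did not pair libraries (r of same-numbered deviations from -0.04 to 0.03).

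Members and lists were chosen with earlier results of these data known. Named genes are the 10 members, Smchd1, the 2 smallest p values of each related list with any called gene, and the 3 genes most like the members' mean profile. Others, among them Egr3, Egr4, Prdx2, Pdgfra, Nefl, Aldh1l1, Mycn and Hspa1b, were chosen after their values were seen.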

Additional observations from a re-analysis of the deposited data

How the results depend on the processing

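The count of called members was 0 with edgeR and also 0 in 13 of 17 alternatives. It was 3 with limma-voom quality weights (Egr1 higher, Klf4 and Atf3 lower), 1 with the sample-name term, 1 with the libraries named 11 to 14 alone (Egr1 lower in both), and 0 to 5 when single libraries were left out, with 5 only without wild type replicate 3. Over all genes edgeR called 82, and 398 were called by DESeq2, 127 by limma-voom, 5168 with quality weights, 222 without a filter, 54 with the replicate block, 186 with the sample-name term, 376 with the libraries named 11 to 14, and 30 to 5676 when single libraries were left out (39, 45 and 5676 without wild type replicates 1 to 3, and 30, 43 and 34 without null replicates 1 to 3). Smchd1 kept its call in every alternative.

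Among 170 values of members under alternatives, 15 changed sign, and the cause was not tested. With the sample-name term Fos was -0.36, Egr1 -0.44 (adjusted p = 0.0135) and Egr2 -0.31, and with the libraries named 11 to 14 alone they were -0.36, -0.44 and -0.31. With single libraries left out, Fos ran from -0.058 to 0.29, Fosb from -0.54 to -0.09, Egr1 from 0.025 to 0.69, Jun from -0.039 to 0.061, Egr2 from -0.016 to 0.41 and Ier2 from -0.067 to 0.033; Ier2 was 0.020 with upper-quartile scaling. Junb ran from -0.15 to -0.023, Klf4 from -0.72 to -0.47, Atf3 from -1.16 to -0.64 and Myc from -0.18 to -0.035; these and Fosb stayed negative under every alternative run. With the replicate block 0 members were called, though no pairing by replicate number was seen. Fosb was -0.82 and Atf3 -0.34 with the sample-name term. Low counts limit Atf3 (10 to 43 per library) and Fosb (35 to 64).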

Other observations

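Npas4, an immediate early gene of active neurons, was too low to be tested. It had 4, 6 and 3 counts in the wild type libraries and 0, 2 and 1 in the null libraries, and it was picked out after its values were seen. Arc, another gene linked to synaptic activity, was far more abundant, at 113.2, 98.9 and 85.8 CPM in wild type against 70.0, 89.8 and 96.6 CPM in null, with overlapping groups (log2 fold change -0.22 ± 0.14, adjusted p = 0.397, edgeR). Plk2, a kinase induced by growth factors, had 800, 812 and 492 CPM in wild type against 499, 516 and 555 CPM in null. Wild type replicate 3 was its lowest library, just below null replicate 1. Its log2 fold change was -0.42 ± 0.18 (adjusted p = 0.267, edgeR).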
